A study of Mus musculus with 8 samples.

Results

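Peaks that begin in introns were taken from the 4 CLIP libraries of mouse embryonic stem (mES) cells as those whose position 15 nt inside the 5′ end lay, on the same strand, in a gene body but in no exon of any transcript of GENCODE release M21 (build mm10). They numbered 630 of 29555 peaks, or 2.13%. Another 28254 peaks began in exons and 671 outside the genes of their strand, here called intergenic. Introns are the stretches of a gene's RNA that are spliced out before the mRNA leaves the nucleus, so a CLIP peak that begins in one can mark RNA that was unspliced, a separate transcript inside the intron, or an exon that the annotation lacks. Introns also carry small RNA genes, retrocopies of other genes and many repeats. MBD5 and MBD6 are methyl-CpG-binding domain proteins that associate with the PR-DUB complex, which removes ubiquitin from histone H2A.

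The study measured RNA bound by each protein with CLIP-seq, in which RNA crosslinked to a protein is pulled down with it and sequenced, and set the RNA targets of the proteins side by side. Both groups were wild-type mES cells that stably overexpressed the human coding sequence of MBD5 or MBD6 with a 3XFlag tag, delivered by lentivirus, kept under hygromycin and grown with LIF, CHIR99021 and PD0325901. Each group had 2 CLIP libraries, and the matching input samples were not used here. Feeder cells had been removed by passaging. Of 10 mES cell markers, 7 had an exon peak, while none of 8 fibroblast markers and none of 4 endoderm markers had one. An exon peak is no expression level, and 19.8% of all protein-coding genes with introns had one, so these counts do not test cell purity. The libraries report on overexpressed human proteins in mouse cells, and the sources differ on the antibody, Flag by the sample characteristics and MBD6 by the protocol for the pull-down. The depth, or number of reads of a whole library as estimated from the deposited values, was 478833 and 500153 for Flag-MBD5. Flag-MBD6 had 983927 and 1111760 reads, or 2.14 times as many. Where the opposite protein had 60 or more reads in each library, summit reads differed between the libraries of 1 protein by less than sampling noise (chi-square per degree of freedom 0.496 at 685 sites for Flag-MBD5 and 0.414 at 277 sites for Flag-MBD6). The comparison covers strong sites only and leaves out 13 and 1 sites that were not called in both libraries compared, which lowers the chi-square. Each protein was therefore counted, with caution, as 1 sample, n = 1 per protein, and intervals below are 95% intervals that cover counting error only.

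Sequence could be read for few of the members, because only exons of either strand and the windows around gene starts were available. Of 377 sites (overlapping intron peaks of the 4 libraries merged), 9 had their whole sequence, and 2 of those were found in all 4 libraries. One of these was in Tnpo2, a nuclear import receptor, shown because it holds the end of an intron, with its run of pyrimidines before the AG, and the first bases of the next coding exon. It lay at chr8:85053626-85053786 on the plus strand and was read from the overlapping antisense transcript A230103J11Rik. Capitals mark exon bases here and in the next sequences.
Tnpo2: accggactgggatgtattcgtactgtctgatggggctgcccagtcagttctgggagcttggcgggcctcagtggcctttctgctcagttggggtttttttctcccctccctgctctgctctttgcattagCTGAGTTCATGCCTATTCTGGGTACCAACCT
A site in Kcnh2, which encodes a cardiac potassium channel, was found in all 4 libraries with 8, 12, 10 and 10 reads and began upstream of an internal start of the gene in RefSeq. Its intron part, from chr5:24329592-24329675 on the minus strand and read from the RefSeq promoter table (GRCm38.p6), was G-rich, with 76.2% G or C.
Kcnh2: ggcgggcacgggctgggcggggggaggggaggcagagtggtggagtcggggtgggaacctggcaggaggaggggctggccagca
Sites in Gm21985 and Brf1, found in both Flag-MBD6 libraries but with no Flag-MBD5 peak, are also shown. The Gm21985 site (chr2:112368196-112368277, plus strand, the first 82 of 159 bases of the site, read from the same table) had 40.2% G or C, and the first 62 bases in Brf1, an RNA polymerase III initiation factor (chr12:112977253-112977314, minus strand, opposite a coding exon of Btbd6), had 53.2%. The Tnpo2 site above had 54.7%. These few sequences were shown because they could be read, and they do not describe the G or C content of either group.
Gm21985: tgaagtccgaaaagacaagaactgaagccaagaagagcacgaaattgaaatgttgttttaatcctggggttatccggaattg
Brf1: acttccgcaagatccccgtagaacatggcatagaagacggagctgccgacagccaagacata
The exon that a peak ran into is shown for a pair of the strongest sites. The Trrap exon (chr5:144771608-144771657, plus strand, 50 bases) is coding, and the 5430416N02Rik exon (chr5:100426758-100426804, minus strand) belongs to a lincRNA. They had 42.0% and 51.1% G or C.
Trrap: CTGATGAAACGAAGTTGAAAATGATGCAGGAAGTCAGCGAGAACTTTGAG
5430416N02Rik: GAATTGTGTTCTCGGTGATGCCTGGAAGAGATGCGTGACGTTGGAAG
RNase T1, which trimmed the RNA, cuts after G. The base before the 5′ end was known for 45 intron peaks at 32 sites, and it was G in 36 of them (80.0%, 66.2 to 89.1). Only 9 of these 45 peaks held no exon base, so the count describes mainly peaks close to exons. A site called in several libraries is counted in each of them, so the interval is too narrow. The base before exon peaks was not read, so whether 80.0% is high cannot be told.

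Intron peaks took a larger share of the Flag-MBD6 peaks than of the Flag-MBD5 peaks. They made up 59 of 5362 peaks (1.10%, 0.854 to 1.42) and 61 of 5388 peaks (1.13%, 0.882 to 1.45) in the Flag-MBD5 libraries. In the Flag-MBD6 libraries they made up 245 of 9218 (2.66%, 2.35 to 3.01) and 265 of 9587 (2.76%, 2.45 to 3.11). The lowest Flag-MBD6 library was above the highest Flag-MBD5 library, and the pooled shares differed by 1.60 percentage points (Newcombe interval 1.28 to 1.90). Over libraries, the exact permutation test (two-sided) gave p = 0.333, the smallest it can give with 2 against 2, and it was not read further because each protein counted as 1 sample. Flag-MBD6 had 4.25 times as many intron peaks as Flag-MBD5, against 1.72 times as many exon peaks, 1.64 times as many intergenic peaks and 1.20 times as many peaks antisense to an intron. With the best 5362 peaks of every library, the difference in share fell to 0.587 percentage points (1.71% against 1.12%). Depth differed between the proteins, and the part of depth and of the protein in the difference cannot be told apart. The shares also depend on the position used, since at the summit in place of 15 nt inside the 5′ end they were 17.7% and 20.4%.

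**Figure D1:**
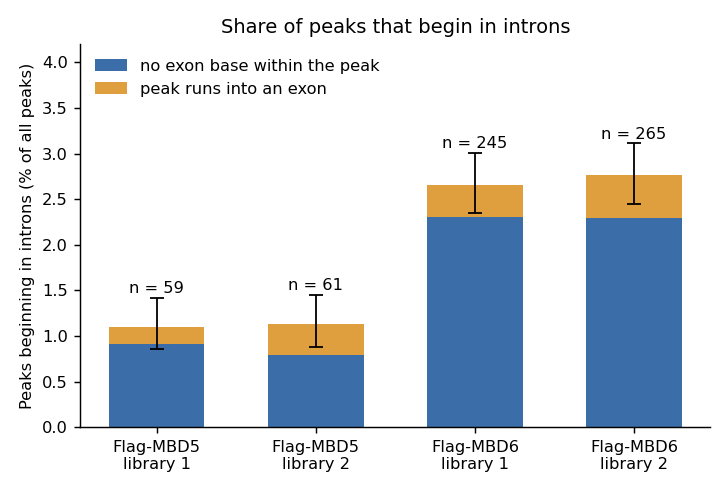
Share of all peaks of a library that began in introns (%), for the 4 CLIP libraries, split by whether the peak held an exon base; error bars are 95% Wilson intervals of the whole share and n counts intron peaks. Both Flag-MBD6 libraries stood above 2.6% and both Flag-MBD5 libraries below 1.2%, mostly through peaks that held no exon base. The class named in the legend as running into an exon includes peaks whose first bases lay in the exon before.

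Most intron peaks stayed inside the intron. Their reads had been extended to 150 bp. Of these peaks, 10, 18, 32 and 45 in Flag-MBD5 libraries 1 and 2 and Flag-MBD6 libraries 1 and 2 held a base of an exon of the same strand. The exon could lie at either end of the peak, and 3, 8, 16 and 30 peaks had the summit in an exon. Peaks with no exon base numbered 49, 43, 213 and 220, a ratio of 4.71 between the proteins, while peaks that held an exon base had a ratio of 2.75. The position 15 nt inside the 5′ end lay within 5 nt of an exon for 17 intron peaks (median fold enrichment 9.24), and within 5 nt of an intron for 30 exon peaks (8.35).

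Intron peaks were weaker than exon peaks in every library. The fold enrichment, the signal at the summit over the local background, had a median of 8.53 and 9.08 in intron peaks of the Flag-MBD5 libraries against 10.4 and 10.5 in exon peaks. In the Flag-MBD6 libraries the medians were 8.69 and 9.31 against 11.1 and 11.2. The mean of the 4 differences was -1.91 ± 0.422 (SD over libraries; exact sign-flip test, two-sided, p = 0.125, the smallest that 4 libraries allow). As each protein counted as 1 sample, the 4 libraries are not 4 independent samples, and neither the SD nor this p was read further. Median reads at the summit were 11, 12, 14 and 16 for intron peaks in the same order of libraries and 16, 16, 20 and 22 for exon peaks.

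A Flag-MBD6 intron peak was found again in the other Flag-MBD6 library about as often as an exon peak of the same strength, but far less often in Flag-MBD5. Of the intron peaks, 172 of 245 (70.2%, 64.2 to 75.6) in library 1 and 179 of 265 (67.5%, 61.7 to 72.9) in library 2 overlapped a peak of the other Flag-MBD6 library. Exon peaks with the same number of summit reads did so in 69.7% and 66.7%. In contrast, 48 of 245 intron peaks (19.6%) and 60 of 265 (22.6%) were also called in a Flag-MBD5 library. The share over all peaks of these libraries was 58.2% and 56.5%, and that of exon peaks 59.6% and 57.7%. The intron share differed from the exon share by -40.0 percentage points in library 1 (Newcombe interval -44.6 to -34.4) and by -35.0 in library 2 (-39.8 to -29.5). To set peaks of equal strength side by side, exon peaks were weighted to the summit reads of the intron peaks, which left 42.7% and 41.5% for exons, and the intron peaks differed from them by -23.1 and -18.9 points. For intergenic peaks the same difference was -8.02 and -2.04 points. The mean gap of the intron peaks, -21.0 points, was -8.96 when a peak had to be called in both Flag-MBD5 libraries.

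Intron peaks were called in Flag-MBD5 less often than exon peaks at each strength, with an interval that included 0 in 1 case given below. Among peaks with under 15 summit reads, which held 135 of the 245 and 115 of the 265 intron peaks, the shares were 8.89% and 12.2% against 25.5% and 20.8% of exon peaks, a difference of -16.6 (-20.7 to -10.3) and -8.65 points (-13.8 to -1.23). Few exon peaks this weak, and nearly all of the strongest, were called in Flag-MBD5, which bounds the size of the gap at both ends. Among peaks with 15 to 19 summit reads, 3 of 40 intron peaks (7.50%, 2.58 to 19.9) in Flag-MBD6 library 1 were called in Flag-MBD5, against 48.3% of 1704 exon peaks, although 37 of the 40 were found in the other Flag-MBD6 library. In library 2 the values were 10 of 64 (15.6%, 8.71 to 26.4) and 39.3% of 1869. Among peaks with 20 to 29 reads, 16 of 46 intron peaks (34.8%, 22.7 to 49.2) and 14 of 59 (23.7%, 14.7 to 36.0) were called in Flag-MBD5, against 69.9% and 63.5% of exon peaks. With 30 reads or more, the shares were 17 of 24 (70.8%) and 22 of 27 (81.5%) against 93.3% and 91.1%, and in library 2 the interval of that difference included 0 (-27.8 to 0.801). Of peaks that held no exon base, 34 of 213 and 36 of 220 were called in Flag-MBD5, a difference of -24.0 and -22.5 points from exon peaks of equal summit reads.

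**Figure D2:**
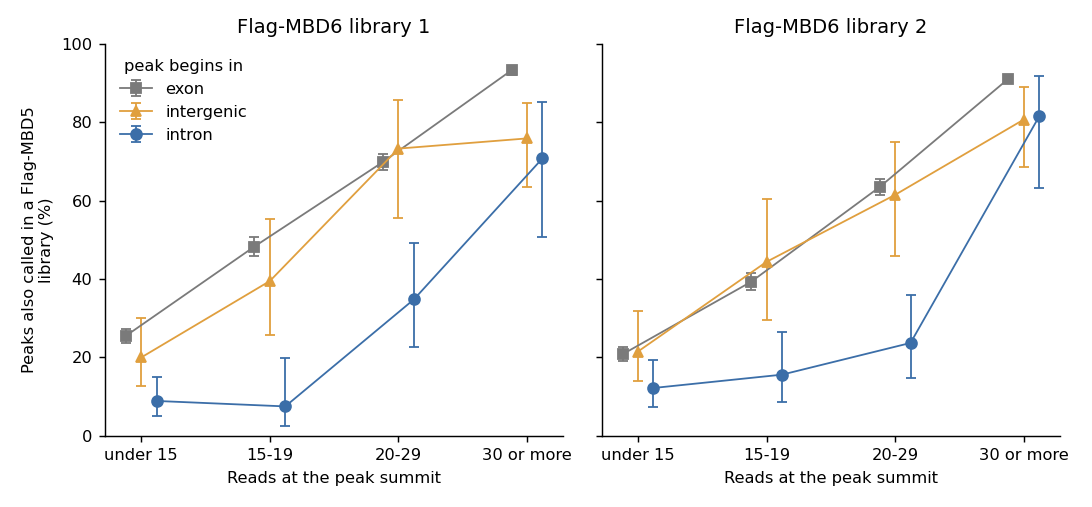
Share of Flag-MBD6 peaks that were also called in a Flag-MBD5 library (%), by the number of reads at the summit, for peaks that began in exons, outside genes of the strand (intergenic) and in introns; bars are 95% Wilson intervals. Intron peaks lay below exon peaks at every number of reads in both libraries, at 7.50% against 48.3% for 15 to 19 reads in library 1.

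In the other direction, 45 of 59 (76.3%, 64.0 to 85.3) and 47 of 61 (77.0%, 65.1 to 85.8) Flag-MBD5 intron peaks were called in a Flag-MBD6 library. The share for Flag-MBD5 exon peaks was 90.7% and 91.0%, and for exon peaks of equal summit reads 87.6% and 89.2%, a difference of -11.3 and -12.2 points. Intergenic Flag-MBD5 peaks were called in Flag-MBD6 in 76.3% and 72.8%, and differed from exon peaks of equal summit reads by -13.0 and -15.6 points, so the lower share was not particular to introns. Most Flag-MBD5 intron peaks therefore had a Flag-MBD6 peak, and most Flag-MBD6 intron peaks had no Flag-MBD5 peak. Merged over libraries, 34 of the 377 sites were found in both Flag-MBD5 libraries, 161 in both Flag-MBD6 libraries and 28 in all 4. Of the 161, 122 had no Flag-MBD5 peak of any kind over them. Another 3 sites were in both Flag-MBD5 libraries with no Flag-MBD6 intron peak, and 197 were in 1 library. With the best 5362 peaks of every library, 58 sites were found in both Flag-MBD6 libraries. For comparison, 3444 of 11417 exon sites (30.2%) were found in all 4 libraries, against 7.43% of intron sites. Exon sites in both Flag-MBD6 libraries numbered 7142, so many exon sites too were not found in both Flag-MBD5 libraries. How many of the 7142 had no Flag-MBD5 peak of any kind was not counted.

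Among the 28 intron sites found in all 4 libraries, the best mean rank of fold enrichment belonged to a site in Lcor, a corepressor of nuclear receptors (chr19:41525536-41525961, plus strand). Its summit held 41 and 52 reads for Flag-MBD5, and Flag-MBD6 had 68 and 77, with fold enrichments of 30.0, 37.1, 34.8 and 37.2. RefSeq places a separate protein-coding gene on the same strand there, Morf4l1b (1710 bp, chr19:41525252-41526961), and the site began 284 nt after its start, so in RefSeq this strongest intron site lies in another gene. The site in the lincRNA gene Gm26561 (chr17:70963781-70963971, plus strand) had 42, 42, 45 and 57 reads in the same order and fold enrichments of 30.7, 30.1, 28.5 and 34.3. The position 15 nt inside its peaks lay 5883 nt from the exon before it (median over its peaks, here and below).

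The site in Cdk8, the kinase of the Mediator complex (chr5:146261060-146261469, plus strand), had 118, 106, 119 and 101 reads, no higher in the deeper Flag-MBD6 libraries. The site in Trrap, a scaffold of histone acetyltransferase complexes (chr5:144771334-144771750, plus strand), had 37, 56, 46 and 51 reads and held the whole exon printed above. In 5430416N02Rik (chr5:100426758-100426955, minus strand) the reads were 48, 50, 56 and 64, while the fold enrichment went from 22.5 in Flag-MBD5 library 1 to 11.6 and 7.10 with Flag-MBD6. A site in Gm20388 (chr8:122589963-122590134, plus strand) had 25, 25, 35 and 39 reads and overlapped a RefSeq pseudogene, Gm34962. At Peak1, a pseudokinase gene, all 4 libraries had many reads (291, 269, 301 and 282) but low fold enrichment (5.21, 4.42, 5.52 and 4.07).

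At the shared sites, the ratio of Flag-MBD6 to Flag-MBD5 reads was below the ratio of the depths. Scaled to the estimated depth, the log2 ratio of Flag-MBD6 over Flag-MBD5 summit reads had a median of -0.72 (quartiles -1.05 and -0.42) over the 28 sites, and it was above 0 at 0 of them. Over the 3444 exon sites found in all 4 libraries the median was -0.32 (quartiles -0.67 and 0.06). A site had to be called in the shallower Flag-MBD5 libraries to enter either set, and the ratio is a description with no test. The authors also collapsed identical reads and kept at most 5 reads at a position. Both steps limit how far summit reads at strong sites, Cdk8 among them, can rise with depth. Their part in the ratio was not tested, so the ratio is no measure of binding.

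**Figure D3:**
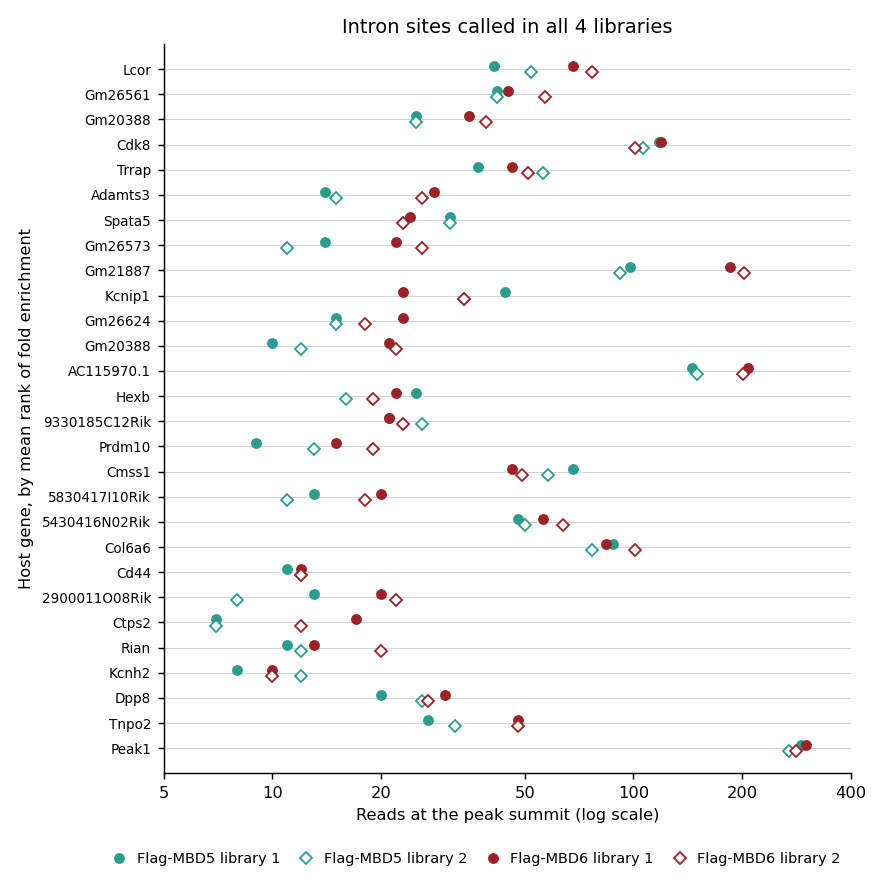
Reads at the peak summit (log scale) in each of the 4 libraries for the 28 intron sites called in all of them, ordered by mean rank of fold enrichment. Reads in the deeper Flag-MBD6 libraries were often close to those in the Flag-MBD5 libraries, as at Cdk8 (118 and 106 against 119 and 101).

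The 122 Flag-MBD6 sites without a Flag-MBD5 peak were of moderate strength. Their summed summit reads over both libraries had a median of 32 and a maximum of 87. The best by mean rank was in Ube2v2, a ubiquitin-conjugating enzyme variant (chr16:15572587-15572862, minus strand), with 34 and 36 reads and fold enrichments of 23.0 and 23.2. Elf1, an ETS transcription factor (chr14:79526075-79526319, plus strand), also ranked among the 5 best Flag-MBD6 sites, with 44 and 42 reads in the Flag-MBD6 libraries and a peak of 10 reads in Flag-MBD5 library 2. Of the 161 sites found in both Flag-MBD6 libraries, 125 had no Flag-MBD5 intron peak, and 10 of these (8.0%) held an exon base, against 7 of the 36 with one (19.4%). The interval of the difference included 0 (-11.4 points, Newcombe interval -27.4 to 0.00749). Sites found in a single library held an exon base in 50 of 197 cases (25.4%), against 17 of the 161 (10.6%), a difference of 14.8 points (6.86 to 22.4). Of these 197, 32 were overlapped by a peak of another class in another library. A peak at an exon edge can change class when its start shifts, and the part of this in the difference was not tested.

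The highest read number among the 122 was in Mir142hg, the host transcript of miR-142, with 46 and 41 reads and fold enrichments of 8.66 and 4.56; it was singled out after its values were seen. The peak (chr11:87756797-87756961, plus strand) covered the whole hairpin of Mir142, which GENCODE holds as an exon and which begins inside the peak (chr11:87756864-87756927). miR-142 is best known from blood cells. The mature sequences, from RefSeq (GRCm38.p6), are given with the seed (bases 2 to 8) in capitals.
mmu-miR-142a-5p: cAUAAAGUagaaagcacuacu
mmu-miR-142a-3p: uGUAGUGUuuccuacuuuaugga
The peak does not tell whether a mature arm, the hairpin or the host transcript was bound.

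The exon-free stretch around a site had a median length of 8342 nt (quartiles 2719 and 27880), against 19624 nt (5810 and 56176) weighted over all 1144 Mb of intronic sequence. For the 122 Flag-MBD6 sites the median was 10315 nt and for the 28 shared sites 8208 nt. Stretches under 1000 nt held 54 of the 377 sites (14.3%) but 4 of the 122 (3.28%), against 3.69% of intronic bases. The 5′ end lay within 150 nt before an exon in 63 of 377 sites (16.7%, 13.3 to 20.8), in 5 of the 28 shared sites (17.9%) and in 6 of the 122 (4.92%, 2.27 to 10.3), against 3.01% of intronic bases. It lay within 150 nt after an exon about as often, in 66 of 377 sites (17.5%), 4 of the 28 (14.3%) and 7 of the 122 (5.74%). Sites under a Flag-MBD5 exon peak are left out of the 122 by definition. Taken per peak, 7, 14, 27 and 42 peaks of the 4 libraries (14.3% of the 630) lay within 150 nt before an exon. The first intron held 67 of the 377 sites (17.8%), and 215 (57.0%, 52.0 to 61.9) lay in the 5′ part of their stretch, nearer the exon before than the exon after.

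**Figure D4:**
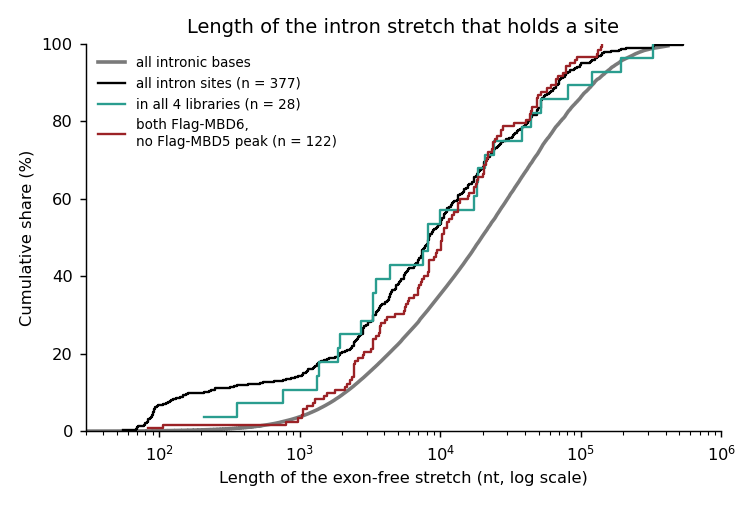
Cumulative share (%) of sites, and of all intronic bases, by the length of the exon-free stretch that holds them (nt, log scale). All site groups lie to the left of the intronic bases over most lengths, and short stretches under 1000 nt hold 14.3% of all sites but 3.28% of the 122 Flag-MBD6 sites without a Flag-MBD5 peak.

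Some intron sites, 59 of the 377, came in groups within one intron. Neighbouring sites in the same exon-free stretch were at most 3000 nt apart in 35 cases, with a median spacing of 601 nt between 5′ ends (217 to 2641), and in 28 of these neither site had a Flag-MBD5 intron peak. Of the 125 sites in both Flag-MBD6 libraries without a Flag-MBD5 intron peak, 29 (23.2%) had such a neighbour, against 2 of the 36 with one (5.56%), a difference of 17.6 points (3.46 to 26.7). The neighbouring sites lay in 23 introns, and sites of one intron share their transcript, so they are not independent and the interval is too narrow. Neighbours were counted over all sites, those of a single library included. No such share was taken for exon or intergenic peaks, so whether grouping is particular to these sites was not tested.

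The genes with most sites were Cox16/Gm20498, Diaph2 and Gm26624 with 5 each and Swt1 and Magi3 with 4 each. Swt1, named for a yeast RNA endonuclease, had 4 sites in an intron of 3339 nt, with 15 and 23, 14 and 14, and 11 and 13 reads in Flag-MBD6 libraries 1 and 2 at the 3 sites found in both and 21 reads at the site nearest the exon before, found in library 2. They were spaced by 1032, 784 and 797 nt along the transcript. Magi3, which encodes a membrane-associated scaffold, had 4 sites spaced by 573, 864 and 695 nt, with 10 to 14 reads. Diaph2, a formin that assembles actin, had 5 sites in 3 introns, among them a pair 767 nt apart with 12 and 13 reads at the first site and 20 and 28 at the second. The Cox16/Gm20498 sites, in overlapping genes of which Cox16 serves in cytochrome c oxidase assembly, were spread over an intron of 48656 nt with 11 to 21 reads. No Flag-MBD5 peak was called at any site of these 4 genes, while Gm26624 had a site with 15 and 15 reads in Flag-MBD5 and 23 and 18 in Flag-MBD6.

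**Figure D5:**
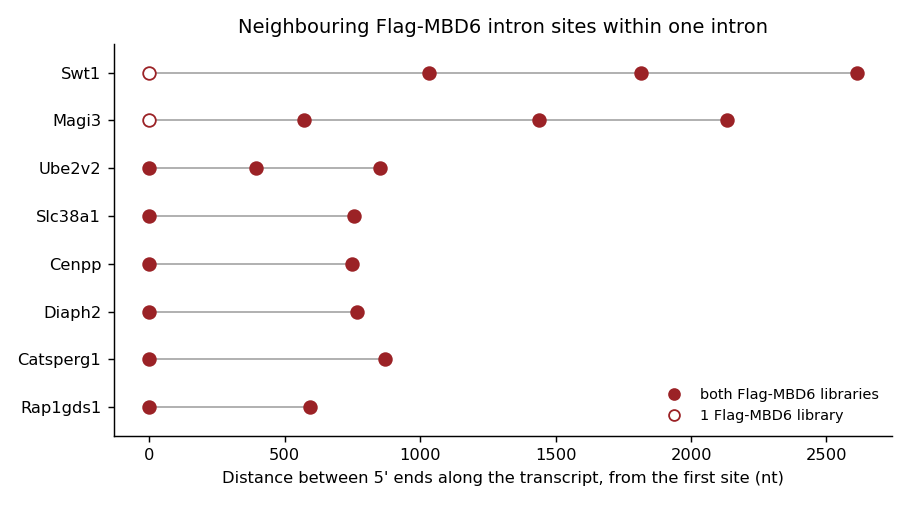
Distance between the 5′ ends of neighbouring Flag-MBD6 intron sites along the transcript (nt, from the first site), for 8 genes chosen for display after the sites were known. Filled points were found in both Flag-MBD6 libraries and open points in 1; spacings of 592 to 870 nt separate the pairs in Rap1gds1, Cenpp, Slc38a1, Diaph2 and Catsperg1.

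Some sites lay over another small locus that RefSeq places inside the host gene. Of the 377 sites, 38 overlapped another RefSeq locus of at most 5000 bp, 26 of them a pseudogene and 7 a small RNA or tRNA. Among sites in both Flag-MBD6 libraries, such a locus lay under 6 of the 125 without a Flag-MBD5 intron peak (4.80%) and 7 of the 36 with one (19.4%), a difference of -14.6 points (-30.4 to -3.61). The strand of most of these loci was not given in the table used. Pseudogenes and retrocopies share sequence with their parent genes, and reads with up to 10 matches were placed at one of them, so which copy the reads came from is uncertain. A site in Sox2ot, a long RNA that spans Sox2, had 28 reads in Flag-MBD6 library 1 alone. Its fold enrichment was low, at 2.56 against a median of 8.69 over the intron peaks of that library. The site began 101 nt after the RefSeq start of Sox2 on the same strand, upstream of the GENCODE exon. It was singled out after its values were seen.

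The 322 host genes were 0.973% of the 33091 genes with introns. Among the 4189 of these genes that had an exon peak in any library, 179 (4.27%) held an intron site. Of the 288 protein-coding hosts, 166 (57.6%, 51.9 to 63.2) also had an exon peak, against 19.8% of all 20473 protein-coding genes with introns, and the share was 50 of 93 (53.8%) for hosts of the 122 Flag-MBD6 sites and 8 of 19 (42.1%) for hosts of the shared sites. The lists below are read against these background shares and have no test of their own.

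Among RNA-binding proteins, 4 of 20 hnRNP genes, whose proteins bind pre-mRNA, held an intron site, against 17 of 20 with an exon peak. Those in Hnrnpa2b1, Hnrnpl and Hnrnpa3 were found in both Flag-MBD6 libraries, with 27 and 32, 22 and 35, and 11 and 11 reads, and all ran into an exon. The Hnrnpa2b1 site (chr6:51466797-51467199, minus strand) began in the last bases of an exon, crossed an intron of 132 nt and held the next coding exon (chr6:51466906-51467052), which is printed because the site covers it whole. An exon peak lay over the Hnrnpa2b1 site in Flag-MBD5 library 2 and over the Hnrnpl site in both Flag-MBD5 libraries.
Hnrnpa2b1: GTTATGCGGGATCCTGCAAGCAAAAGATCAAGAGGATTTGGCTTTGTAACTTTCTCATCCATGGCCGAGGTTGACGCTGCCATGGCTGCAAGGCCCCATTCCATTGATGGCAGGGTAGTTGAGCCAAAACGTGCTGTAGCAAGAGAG
The site in Hnrnpa1 was in Flag-MBD6 library 2 alone. No SR or Tra2 gene (0 of 13), CLK or DYRK kinase (0 of 6) or RNA m5C gene (0 of 10) held an intron site, though 11, 4 and 6 of them had an exon peak.

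Among chromatin genes, Asxl2, a subunit of the PR-DUB complex, held a site (1 of 11 genes of the list, 7 with an exon peak). It lay 939 nt into an exon-free stretch of 8275 nt (chr12:3477093-3477320, plus strand) and had 22 and 27 reads in the Flag-MBD6 libraries and none called in Flag-MBD5. Of 8 TET and DNA methylation genes, Dnmt1, the maintenance DNA methyltransferase, held a site in Flag-MBD6 library 2 alone, where the other libraries had an exon peak. None of the 16 pluripotency genes with introns held one, and 12 of the 17 genes of the list had an exon peak.

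Among long non-coding RNAs, 3 of the 11 with introns, of 14 listed, held a site. Rian, an imprinted RNA that hosts snoRNAs, had one in all 4 libraries (chr12:109642865-109643027, plus strand), with 11 and 12 reads in Flag-MBD5 and 13 and 20 in Flag-MBD6, over the RefSeq snoRNA AF357426. Pvt1, the neighbour of Myc, had one in both Flag-MBD6 libraries (chr15:62041852-62042012, plus strand) with 20 and 27 reads, and Nespas one in Flag-MBD6 library 2. Of 25 snoRNA host genes listed, 19 had introns, 2 held a site and 19 had an exon peak. Snhg15 had 9 and 9 reads in the Flag-MBD6 libraries in an intron of 106 nt, and the site in Ncl, which encodes nucleolin, was in Flag-MBD5 library 2 alone, where the other libraries had an exon peak.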

How the data were processed

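CLIP-seq peaks of Flag-MBD5 and Flag-MBD6 in mES cells were analysed, with 2 libraries per protein. Per the submitters' processing notes, the authors aligned reads without splicing to mm10 with Bowtie 1.0.0 and used SAMtools 1.16.1, and they called peaks with MACS2 on each strand and in each library separately, with reads extended to 150 bp, at q of 0.01. A read with up to 10 matches was placed at 1 of them. By the methods of the paper, identical reads were collapsed before alignment, and peak calling kept at most 5 reads at a position. The deposited peak lists give positions, a score, the fold enrichment (a ratio), -log10 p and -log10 q values, and the summit position as another whole number in nt. The labels name a Flag antibody in 1 field and an MBD6 antibody in another.

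Peaks were assigned with GENCODE release M21. Reads at the summit and the local background were recovered from the deposited fold and -log10 p values, and 100% of peaks had a whole-read solution (tolerance 0.01). Depth was estimated from the most common background. Peaks overlapping by at least 1 bp on a strand were called shared, and intron peaks so joined formed a site. Shares have 95% Wilson intervals and their differences Newcombe intervals, which cover counting error only, since reads had no molecular identifiers. Exact permutation tests were two-sided. The recovery of summit reads, though not the estimate of depth, was tested on simulated data. Python 3.11.15, NumPy 2.4.6, SciPy 1.17.1 and pandas 2.3.3 were used.

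The members, lists and tests were chosen with earlier results of these data known. Sites were named as the 5 best by mean rank of fold enrichment for each protein and in all 4 libraries, the 5 genes with most sites, and listed genes with a site in all libraries of a protein. Peak1, Tnpo2, Kcnh2, Gm21985, Brf1, Mir142hg, Sox2ot and the listed genes with a site in 1 library were named after their values were seen. No source says that the 2 libraries of a protein came from separate cultures. Planned checks of repeats, GC content and the base before every peak were not run because no mm10 genome was used here. The alternatives changed the threshold, position, gene set, overlap and libraries.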

Additional observations from a re-analysis of the deposited data

How the results depend on the processing

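Of 113 alternative values, 81 stayed within the range set for them, 32 moved beyond it and 0 reversed direction. Only the differences, in intron share, fold enrichment and sharing, could reverse, while shares and counts could not. The share of a protein could not move when a library of the other protein was left out, so the tally does not measure robustness. The intron share of Flag-MBD5 and Flag-MBD6 peaks was 2.45% and 4.90% at the 5′ end itself, 1.52% and 3.12% at 30 nt inside it, 17.7% and 20.4% at the summit, 22.5% and 24.1% at the midpoint, 0.921% and 2.40% in protein-coding genes alone, and 0.932% and 2.36% at least 50 nt from an exon. The difference was 2.46 points at the 5′ end and 2.73 at the summit. At the same number of peaks per library the Flag-MBD6 share was 1.71%, the difference 0.587 points, the Flag-MBD6 sites 58, the host genes 167 and the share of peaks within 150 nt before an exon 18.2%, which was 4.06% at least 50 nt from an exon. Sites in both Flag-MBD5 and both Flag-MBD6 libraries numbered 74 and 295 at the 5′ end, 472 and 1017 at the summit, and 767 and 1577 at the midpoint. Among alternatives chosen after seeing the data, the sharing gap of -21.0 points was -16.8 for genes with 1 site, -8.96 when called in both Flag-MBD5 libraries, -30.4 for at least 20 summit reads and -5.03 for intergenic peaks. Without 1 library, it ranged from -23.1 to -14.5, the shares from 1.10% to 1.13% and from 2.66% to 2.76%, the difference from 1.54 to 1.65 points, the fold difference from -2.07 to -1.73, the share within 150 nt from 13.2% to 16.4% and the host genes from 250 to 309. With the replicate number as a block the difference was 1.59 points, and the numbers are not stated to pair the samples. The cause of these shifts was not tested. Depth limits what Flag-MBD5 could show, since an absent peak call is not absent binding.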
